A study of Mus musculus with 6 samples.

Results

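The genes of fatty acid uptake, activation, oxidation and lipolysis were examined in mouse bone marrow neutrophils, as a set of 43 genes chosen by symbol from the 52636 genes of the deposited table. All 43 were listed in the table, and 32 of them averaged 1 TPM or more and were tested. TPM is a measure of transcript abundance scaled for transcript length and for the library total. The table held 6 libraries of C57BL/6N mice aged 10 weeks, 3 labelled WT and 3 labelled LRP5-null. The latter carried the genotype LRP5f/f/Lyz2Cre+, in which both Lrp5 alleles are floxed and Cre is expressed from Lyz2, a gene of granulocytes, monocytes and macrophages. The labels give no floxed allele and no Cre for the WT mice, and they name a Percoll gradient of marrow cells as the source of the neutrophils, while the study's methods name a sort on CD11b and Ly6G. They do not say that each library came from a separate mouse, so the p-values given here measure the spread between libraries.

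Long-chain fatty acids enter cells by diffusion or with the help of surface proteins, are held by binding proteins in the cytosol and are joined to coenzyme A by acyl-CoA synthetases. Acyl groups cross the mitochondrial membranes as carnitine esters and are shortened step by step by beta-oxidation, while very long and branched chains are shortened first in peroxisomes. Fatty acids not burned at once are stored as triglyceride in lipid droplets and are released again by lipases. Neutrophils are known mainly for glycolysis, although immature neutrophils also draw on fatty acid oxidation. LRP5 was studied as a carrier of unesterified polyunsaturated fatty acids, and the comparison asks whether the transcripts of the other fatty acid carriers and of the enzymes that use fatty acids differed in cells labelled as lacking it.

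No member differed between the labels at an adjusted p under 0.05 in limma over all 9775 genes tested, of which 52 were called, or 0.532%. Eci2 had the smallest adjusted p of the members, 0.129 in limma. At an unadjusted p under 0.05 there were 4 of 32 members, Eci2 and Acsl5 higher and Slc25a20 and Acsl4 lower, beside 23.5% of all genes tested. The 3 libraries of one label lay wholly above or below the 3 of the other in 4 of 32 members, beside 29.7% of all genes. Of the 32 members, 16 had a log2 fold change above 0 and 16 below, with a median of −0.0042 beside 0.04 for all genes. Fold changes were taken after adding 1 TPM, so those of low genes are understated. The fitted changes ran from −0.26 (Acsl4) to 0.34 (Eci1). The 95% interval of the log2 fold change lay between −0.5 and 0.5 in 26 of the 32 members, with a median half-width of 0.22. It left out 0, before adjustment, in Eci2, Acsl5, Slc25a20 and Acsl4.

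**Figure D1:**
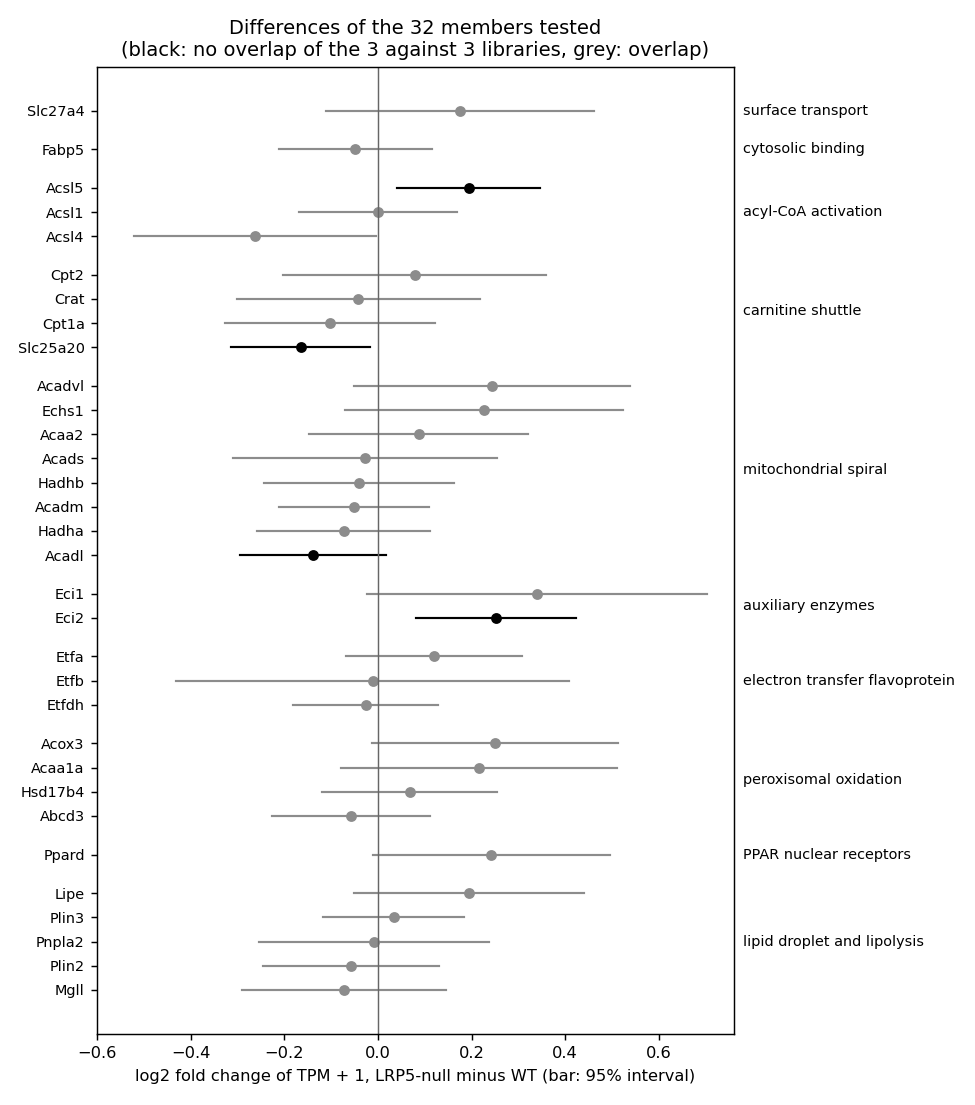
Log2 fold change of TPM + 1 between libraries labelled LRP5-null and WT (x axis) for the 32 members tested, grouped by role (y axis), with 95% intervals from limma as bars. Points lie on both sides of 0, and the 4 black ones, Acsl5, Slc25a20, Acadl and Eci2, are those whose libraries did not overlap.

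The sequence before the start site is shown for the 4 tested members whose groups did not overlap, with no other criterion for their choice. Slc27a2, Acsl3 and Decr1 did not overlap either but were below the filter and are not shown. Promoter sequences of RefSeq on GRCm38.p6 were matched by symbol for 37 of the 43 members, in 47 promoters of 300 bases, from 250 before the start site to 50 after it. The lines give the last 60 bases before the start site, read 5′ to 3′ on the gene's strand, for Acsl5 (chr19:55253309-55253368, plus strand), Eci2 (chr13:34994145-34994204, minus strand), Slc25a20 (chr9:108662076-108662135, plus strand) and Acadl (chr1:66863310-66863369, minus strand).
Acsl5: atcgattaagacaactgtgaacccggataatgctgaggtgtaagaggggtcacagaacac
Eci2: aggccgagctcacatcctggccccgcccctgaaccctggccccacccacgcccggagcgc
Slc25a20: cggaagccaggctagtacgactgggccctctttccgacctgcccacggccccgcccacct
Acadl: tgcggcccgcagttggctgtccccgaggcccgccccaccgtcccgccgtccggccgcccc

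PPARs bind DNA with a partner receptor at a direct repeat of the hexamer AGGTCA spaced by any 1 base. Searched in exact letters on both strands, the repeat was found in 0 of the 47 promoters and in 0.0396% of all 32851 promoters of the same length. The single hexamer was found in 11 of the 47, from 10 members, and in 16.3% of all, and the hexamer preceded by TCA, the site of estrogen-related receptors, in 1 of the 47 (Acsl6) and 0.423% of all. The single hexamer is part of both longer motifs. It was absent as exact letters from the promoters of the 4 members above, as it was from most promoters. Of the members below the filter and also without overlap, Slc27a2 held the hexamer, and no match was found for Acsl3 or Decr1. Among the members tested, Acadm, Acadvl, Cpt1a, Echs1 and Plin2 held it. For the last 4 the lines give it in capitals, also where it reads on the other strand, for Plin2 (chr4:86670245-86670304, minus strand), Cpt1a (chr19:3323180-3323239, plus strand), Acadvl (chr11:70015483-70015542, minus strand) and Echs1 (chr7:140116472-140116531, minus strand).
Plin2: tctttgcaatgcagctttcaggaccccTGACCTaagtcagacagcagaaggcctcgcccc
Cpt1a: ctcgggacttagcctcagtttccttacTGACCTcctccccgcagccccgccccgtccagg
Acadvl: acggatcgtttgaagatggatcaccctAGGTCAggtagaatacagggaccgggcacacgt
Echs1: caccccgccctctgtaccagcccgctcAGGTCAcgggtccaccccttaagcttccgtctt
Among the members tested that held the hexamer, Acadvl and Echs1 had fold changes above 0 and Plin2, Cpt1a and Acadm below, none of them called. A match of letters in this window does not show a site in use.

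The targeted gene itself was not lower. Lrp5 was 1.12, 1.31 and 1.42 TPM in the WT libraries and 1.68, 1.77 and 2.07 TPM in those labelled LRP5-null. TPM by gene does not show whether the floxed part was missing from these transcripts. Every direction given here rests on the labels. Lyz2, the gene that carries Cre, fell from 24797 TPM or more in each WT library to 14027 TPM or less in each LRP5-null library (log2 fold change −0.91, adjusted p = 0.00351 in limma). Total reads ranged from 249841492 to 340580330 per library. The read counts behind single TPM values are not known, and neither is their counting error. The ribosomal share of reads was 1.2%, 1.3% and 3.3% in WT, where replicate 3 was highest, and 2.69% to 2.98% in LRP5-null libraries. WT replicate 3 was the highest of the WT libraries in 23 of 32 members tested. In 19 of 32 the mean of the libraries labelled LRP5-null was nearer to WT replicate 3 than to the mean of the other WT libraries. The same counts over all genes were not taken. In WT replicates 1 to 3, the median log2 deviation from the mean of all 6 libraries was −0.098, −0.045 and 0.081 over members. Over all genes tested it was −0.045, −0.043 and 0.023, so WT replicate 3 was the highest WT library there too. Each library was left out in turn, and values without WT replicate 3 are also given for single members. Where it lay nearest to the libraries labelled LRP5-null, leaving it out widens the difference by construction. Adjusted p-values without it are therefore given as descriptions only. The 10 defining neutrophil genes (Itgam in 2 rows of the table, hence 11 tested) summed to between 332907 and 392267 TPM. Of 8 adipocyte markers, 5 (Lep, Cidec, Plin1, Adrb3 and Cfd) were listed at 0 in every library and the others were below 1 TPM. Monocyte and macrophage markers summed to 59.8 to 71.9 TPM in WT and 70.6 to 79.4 TPM in LRP5-null libraries, with overlap. Of the 8 genes of that list tested, 6 had a log2 fold change above 0 (median 0.20, 0 called). Adgre1 was 10.3 to 12.6 TPM in WT and 14.4 to 15.6 TPM in LRP5-null libraries. C1qa, C1qb, C1qc and, barely, Mertk were also higher without overlap. Cx3cr1, below 1 TPM, was lower without overlap, and Csf1r, the largest part of the sum, Ly86, Vcam1 and Ccr2 overlapped. Of the 16 genes of immature neutrophils 15 had a log2 fold change above 0 (median 0.24, 0 called), and of the 15 genes of mature neutrophils 5 did (median −0.11, 0 called). Without overlap between the labels, markers of platelets summed to 3.12 to 4.45 TPM in WT and 4.93 to 5.73 TPM in LRP5-null libraries. Those of T and NK cells summed to 11.1 to 13.1 and 15.4 to 16.9 TPM. Most of this sum was Cd3d, at 9.33 to 10.6 and 13.4 to 14.5 TPM, and the other genes of that list overlapped. The sums for endothelial and stromal cells, 4.01 to 4.715 and 4.716 to 5.22 TPM, were barely apart and mostly Pecam1 (2.93 to 3.18 and 3.28 to 3.72 TPM). Markers of B cells (11.1 to 12.9 TPM) and erythroid cells (42.3 to 57.1 TPM) overlapped. The part of these marker levels in the values below was not tested. In bulk RNA, fewer cells of a type and less RNA per cell cannot be told apart.

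**Figure D2:**
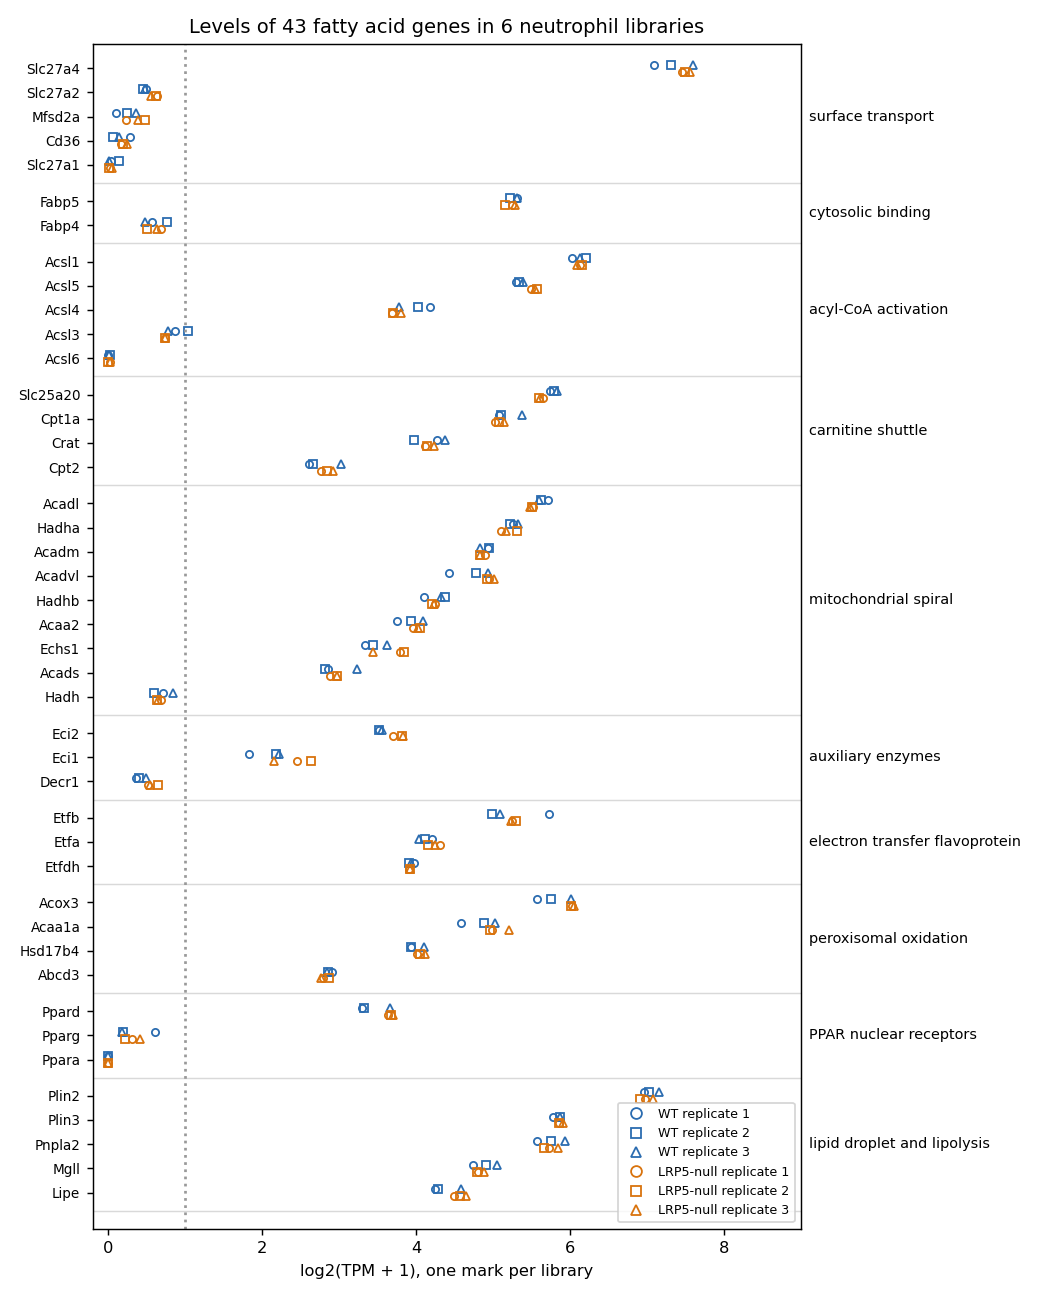
Level of each of the 43 members as log2(TPM + 1) (x axis), 1 mark per library, blue for WT and orange for LRP5-null, with circles, squares and triangles for replicates 1, 2 and 3, grouped by role. The dotted line marks 1 TPM. Slc27a4 and Plin2 stand highest and Ppara is at 0.

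Among the surface transporters, 1 of 5 was expressed above the filter. Slc27a4, which encodes the fatty acid transport protein FATP4, was the most abundant of all 43 members, at 135, 157 and 192 TPM in WT replicates 1 to 3 and 175, 179 and 187 TPM in LRP5-null replicates 1 to 3. WT replicates 1 and 2 were below every library labelled LRP5-null and WT replicate 3 was above them. Between the labels the log2 fold change was 0.18 (standard error, SE, 0.12, adjusted p = 0.417 in limma). Without WT replicate 3 it was 0.31 (adjusted p = 0.0437 in limma), and against WT replicate 3 alone it was −0.09. Values against WT replicate 3 alone are given here and for other members without a test, since 1 library stands for WT and the spread comes from the LRP5-null libraries.

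The other carriers known for polyunsaturated or long-chain fatty acids were near the floor of the table. Slc27a2, which encodes FATP2, was 0.403, 0.364 and 0.397 TPM in WT and 0.547, 0.542 and 0.473 TPM in LRP5-null libraries. Its groups did not overlap, but at these levels it was not tested. Cd36, a scavenger receptor that takes up long-chain fatty acids, lay between 0.0470 and 0.211 TPM, with overlapping groups. Mfsd2a, the carrier of lysophosphatidylcholine bearing docosahexaenoic acid, lay between 0.0716 and 0.398 TPM, also with overlap. Slc27a1, which encodes FATP1, was at most 0.101 TPM. None of these low transporters therefore reached 1 TPM in any library of either label. Slc27a4, on the same per-length scale, was at 135 TPM or more in every library.

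Of the 2 cytosolic binding proteins, Fabp5 passed the filter and Fabp4 did not. Fabp5, the epidermal-type protein that binds long-chain fatty acids, was 38.5, 36.2 and 38.6 TPM in WT and 36.8, 34.8 and 37.9 TPM in LRP5-null libraries. The values interleaved, and the log2 fold change was −0.05 with a 95% interval from −0.21 to 0.11 (adjusted p = 0.701 in limma). Fabp4, a marker of adipocytes and macrophages on the same chromosome, was between 0.392 and 0.693 TPM with overlapping groups. The pair lies on chromosome 3 of NCBIM37 (mm9), 187739 bases apart.

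The acyl-CoA synthetases, which activate fatty acids and so trap them in the cell, did not move together. Acsl1, the most abundant of the 5, was 68.9 ± 4.5 TPM (SD, n = 3) in WT and 68.8 ± 1.8 TPM (SD, n = 3) in LRP5-null libraries. Its 95% interval of −0.17 to 0.17 on the log2 scale was among the narrow ones. Acsl5, a synthetase of mitochondria and endoplasmic reticulum on chromosome 19 from 55327859 to 55371117 (NCBIM37, plus strand), was 38.4, 39.5 and 40.7 TPM in WT and 43.9, 46.4 and 45.8 TPM in LRP5-null libraries. Every library labelled LRP5-null was above every WT library. The log2 fold change was 0.19 (SE 0.065, adjusted p = 0.154 in limma), and it stayed between 0.15 and 0.22 over 18 alternative settings, in all of which the groups did not overlap and in none of which the gene was called. Acsl4, whose enzyme prefers arachidonic and eicosapentaenoic acid, was 17.2, 15.2 and 12.7 TPM in WT and 11.9, 12.03 and 12.96 TPM in LRP5-null libraries. WT replicates 1 and 2 were higher than the rest, and WT replicate 3 lay among the libraries labelled LRP5-null. Its log2 fold change was −0.26 (SE 0.11, adjusted p = 0.208 in limma), −0.37 without WT replicate 3 (adjusted p = 0.0295 in limma) and −0.05 against WT replicate 3 alone. Acsl3 was below the filter, at 0.822, 1.05 and 0.709 TPM in WT and 0.669, 0.668 and 0.661 TPM in LRP5-null libraries, and Acsl6 was at most 0.0139 TPM.

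The carnitine shuttle was expressed in full, with all 4 members tested. Slc25a20, the carrier that exchanges acylcarnitine for carnitine across the inner mitochondrial membrane, lies on chromosome 9 from 108564429 to 108586972 (NCBIM37, plus strand). It was 52.4, 54.4 and 55.9 TPM in WT and 49.2, 47.6 and 47.9 TPM in LRP5-null libraries, so that every library labelled LRP5-null was below every WT library. The log2 fold change was −0.17 (SE 0.064, adjusted p = 0.184 in limma) and remained between −0.21 and −0.14 in 18 alternatives, without overlap in each and called in none. Cpt1a, the outer-membrane carnitine palmitoyltransferase and rate-limiting step of the pathway, was 32.9, 33.3 and 40.5 TPM in WT and 31.7, 32.7 and 34.4 TPM in LRP5-null libraries. WT replicate 3 stood above all other libraries, and the groups otherwise interleaved. Its log2 fold change was −0.10 (adjusted p = 0.544 in limma), −0.0072 without WT replicate 3 (adjusted p = 0.945 in limma) and −0.29 against that library alone. Cpt1a lies on chromosome 19 of NCBIM37, 199092 bases from Lrp5, the nearest member to the floxed locus. Cpt2, the inner-membrane partner, was 5.85 ± 1.1 TPM (SD, n = 3) in WT and 6.18 ± 0.38 TPM (SD, n = 3) in LRP5-null libraries, and Crat, which makes acetylcarnitine, was 17.6 ± 2.6 and 16.9 ± 0.76 TPM (SD, n = 3 each), both with overlap.

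The enzymes of the mitochondrial spiral had log2 fold changes on both sides of 0, with 3 of 8 tested members above 0 and a median of −0.03. The acyl-CoA dehydrogenases, which put in the first double bond of each turn and differ in the chain length they take, had fold changes on both sides of 0. Acadl, for long chains, on chromosome 1 from 66877413 to 66909851 (NCBIM37, minus strand), was 51.6, 48.2 and 47.3 TPM in WT and 44.8, 44.6 and 43.8 TPM in LRP5-null libraries. These groups did not overlap, with a log2 fold change of −0.14 (SE 0.067, adjusted p = 0.250 in limma), and overlapped in 1 of 18 alternatives, the rescaling without the most abundant genes. Acadvl, for very long chains, was 20.6, 26.4 and 29.5 TPM in WT and 29.8, 29.2 and 31.3 TPM in LRP5-null libraries. Only WT replicate 3 overlapped with them, and the log2 fold change was 0.24 (adjusted p = 0.285 in limma) and 0.03 against that library alone. Acadm, for medium chains, was 28.9 ± 1.2 and 27.8 ± 0.78 TPM (SD, n = 3 each) in WT and LRP5-null libraries, and Acads, for short chains, was 6.90 ± 1.3 and 6.68 ± 0.27 TPM (SD, n = 3 each). Neither was distinguishable from no change at this spread.

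The later steps of the spiral gave the same picture. Echs1, the short-chain enoyl-CoA hydratase, was 9.096, 9.86 and 11.3 TPM in WT and 12.8, 13.3 and 9.88 TPM in LRP5-null libraries, a log2 fold change of 0.23 (adjusted p = 0.319 in limma). LRP5-null replicate 3 lay among the WT libraries. Hadha, the alpha subunit of the trifunctional protein, was 37.3, 36.3 and 39.1 TPM in WT and 33.3, 38.7 and 35.0 TPM in LRP5-null libraries (log2 fold change −0.07, adjusted p = 0.599 in limma). Hadhb, its beta subunit, 85 bases away on chromosome 5 of NCBIM37, was 18.3 ± 1.8 and 17.7 ± 0.21 TPM (SD, n = 3 each), and both subunits overlapped between the labels. Acaa2, the thiolase that ends each turn, was 12.4, 14.2 and 16.1 TPM in WT and 14.5, 15.6 and 15.2 TPM in LRP5-null libraries, again with overlap (log2 fold change 0.09, adjusted p = 0.623 in limma). Hadh, the short-chain hydroxyacyl-CoA dehydrogenase, was between 0.513 and 0.784 TPM in every library and was not tested.

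The auxiliary enzymes, which turn the double bonds of unsaturated fatty acids into a form the spiral can use, were all at higher mean levels in the libraries labelled LRP5-null, without any passing the test. Eci2, an enoyl-CoA isomerase of peroxisomes and mitochondria on chromosome 13 from 35069617 to 35118963 (NCBIM37, minus strand), had the smallest p of all members. It was 10.5, 10.5 and 10.8 TPM in WT and 12.03, 13.1 and 13.2 TPM in LRP5-null libraries, with no overlap. The log2 fold change was 0.25 (SE 0.073, adjusted p = 0.129 in limma), between 0.20 and 0.29 in 18 alternatives, without overlap in each and called in 1 of them, without WT replicate 3 (adjusted p = 0.0494 in limma). Eci1, the mitochondrial isomerase, was 2.55, 3.54 and 3.64 TPM in WT and 4.49, 5.23 and 3.43 TPM in LRP5-null libraries. LRP5-null replicate 3 lay among the WT libraries, and the log2 fold change was 0.34 with an interval from −0.02 to 0.70 (adjusted p = 0.235 in limma). Decr1, the mitochondrial dienoyl-CoA reductase, was listed at 0.278, 0.314 and 0.407 TPM in WT and 0.433, 0.569 and 0.458 TPM in LRP5-null libraries, without overlap but under the filter.

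The electron transfer flavoprotein, which hands the electrons of the dehydrogenases to the respiratory chain, had no subunit whose groups were apart. Etfa was 17.5, 16.4 and 15.4 TPM in WT and 18.9, 16.9 and 18.0 TPM in LRP5-null libraries (log2 fold change 0.12, adjusted p = 0.398 in limma). Etfb was 52.0 TPM in WT replicate 1 and between 30.8 and 38.2 TPM in the other 5 libraries, and its interval, from −0.43 to 0.41, was the widest of the 32 members tested. Etfdh, the ubiquinone oxidoreductase, was 14.4 ± 0.36 and 14.1 ± 0.043 TPM (SD, n = 3 each) in WT and LRP5-null libraries.

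In the peroxisomal branch, 3 of 4 members had log2 fold changes above 0. Acox3, an acyl-CoA oxidase for branched chains, was the most abundant, at 46.3, 52.9 and 63.6 TPM in WT and 63.9, 63.4 and 65.2 TPM in LRP5-null libraries. WT replicate 3 lay among the libraries labelled LRP5-null and the other WT libraries lay below them. The log2 fold change was 0.25 (SE 0.11, adjusted p = 0.229 in limma), 0.37 without WT replicate 3 (adjusted p = 0.0241 in limma) and 0.01 against it alone. Acaa1a, the peroxisomal thiolase, was 23.0, 28.6 and 31.5 TPM in WT and 30.6, 30.1 and 35.8 TPM in LRP5-null libraries (log2 fold change 0.22, adjusted p = 0.335 in limma). Hsd17b4, the bifunctional enzyme, was 14.2, 14.3 and 16.2 TPM in WT and 15.1, 15.6 and 16.3 TPM in LRP5-null libraries (log2 fold change 0.07, adjusted p = 0.630 in limma). Both overlapped through WT replicate 3, their highest WT library. Abcd3, a transporter of the peroxisomal membrane, was 6.47, 6.21 and 6.18 TPM in WT and 5.92, 6.27 and 5.81 TPM in LRP5-null libraries (log2 fold change −0.06, adjusted p = 0.655 in limma).

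Of the PPAR nuclear receptors, which sense fatty acids and switch on genes of their use, Ppard was the one expressed. It was 8.82, 8.98 and 11.6 TPM in WT and 11.4, 11.8 and 11.9 TPM in LRP5-null libraries, with WT replicate 3 inside the LRP5-null range. The log2 fold change was 0.24 (SE 0.11, adjusted p = 0.228 in limma), 0.36 without WT replicate 3 (adjusted p = 0.0204 in limma) and 0.0096 against it alone. Pparg lay between 0.130 and 0.523 TPM with overlap, and Ppara was listed at 0 in all 6 libraries.

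Genes of lipid droplets and lipolysis overlapped between the labels in all 5 members. Plin2, a coat protein of droplets, was 131 ± 9.4 TPM (SD, n = 3) in WT and 126 ± 7.8 TPM (SD, n = 3) in LRP5-null libraries. Plin3, another coat protein, was 56.2 ± 2.1 and 57.5 ± 1.1 TPM (SD, n = 3 each). Pnpla2, the adipose triglyceride lipase that makes the first cut in stored triglyceride, was 46.4, 53.0 and 60.2 TPM in WT and 52.1, 49.5 and 56.3 TPM in LRP5-null libraries. For these genes the log2 fold changes were −0.06, 0.03 and −0.0088, and all groups overlapped. Lipe, the hormone-sensitive lipase of the second cut, was 18.0, 18.6 and 23.0 TPM in WT and 21.5, 22.7 and 24.1 TPM in LRP5-null libraries. Its log2 fold change was 0.19 (adjusted p = 0.302 in limma), 0.30 without WT replicate 3 (adjusted p = 0.0385 in limma) and −0.01 against it alone. Mgll, the monoglyceride lipase of the last cut, was 25.6, 29.0 and 32.2 TPM in WT and 26.8, 26.8 and 28.5 TPM in LRP5-null libraries (log2 fold change −0.07, adjusted p = 0.662 in limma), and it was 0.0039 without WT replicate 3.

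**Figure D3:**
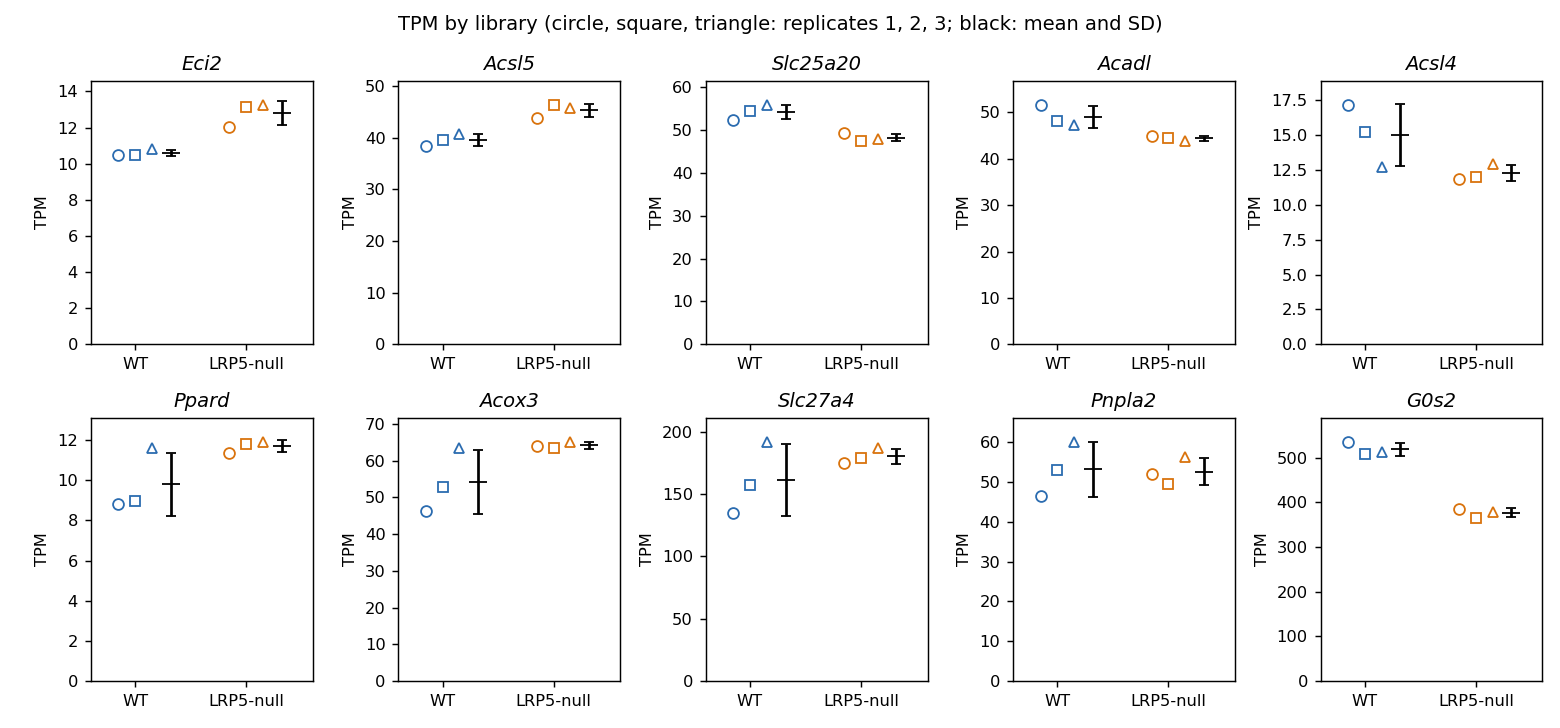
TPM per library (y axis, from 0) of 9 members and of G0s2, with WT in blue and LRP5-null in orange, circles, squares and triangles for replicates 1, 2 and 3, and the mean with its SD in black. Eci2 and Acsl5 are higher and Slc25a20, Acadl and G0s2 lower in all LRP5-null libraries, while in Ppard, Acox3 and Slc27a4 the triangle of WT replicate 3 lies within or above the LRP5-null values.

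Other genes of fatty acid oxidation and lipid droplets, from a list of 85 that holds no member, were looked at beside them. Of these, 44 passed the filter, 1 was called lower and 0 higher, beside 0.266% of all genes called in each direction. In 17 the groups did not overlap (10 higher, 7 lower, beside 17.4% and 12.3% of all genes). The 10 higher include Acsf3, which passed the filter only through the LRP5-null libraries. The gene called was G0s2, whose protein binds and inhibits the lipase of Pnpla2. G0s2 fell from 536, 509 and 512 TPM in WT to 386, 366 and 380 TPM in LRP5-null libraries, a log2 fold change of −0.46 (SE 0.059, adjusted p = 0.0357 in limma). Every library labelled LRP5-null was below every WT library in all 18 alternatives, and the gene was called in 8 of them, with a limma adjusted p from 0.0105 to 0.178. It was not called without a filter, without the mean-variance trend, with the replicate number or the ribosomal share in the fit, against WT replicate 3 alone, or without any library other than WT replicate 3.

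The next genes of that list by p were not called with all 6 libraries. Acot13, an acyl-CoA thioesterase, was 10.2, 9.76 and 10.3 TPM in WT and 13.9, 13.7 and 14.7 TPM in LRP5-null libraries (log2 fold change 0.45, adjusted p = 0.0522 in limma, called in 5 of 18 alternatives). Abcd2, a peroxisomal transporter of very long and polyunsaturated chains, was 68.2, 63.3 and 58.8 TPM in WT and 45.7, 47.2 and 48.1 TPM in LRP5-null libraries (log2 fold change −0.42, adjusted p = 0.0648 in limma, called in 2 of 18). Neither overlapped between the labels in any alternative. Mcee, the methylmalonyl-CoA epimerase used for odd-numbered chains, had a log2 fold change of 0.29 (adjusted p = 0.113 in limma), from 48.2, 45.1 and 44.2 TPM in WT and 60.1, 55.9 and 52.7 TPM in LRP5-null libraries. Acsf3, a malonyl-CoA synthetase of mitochondria, was at 0.483, 0.902 and 0.946 TPM in WT and 1.24, 1.18 and 1.56 TPM in LRP5-null libraries (log2 fold change 0.40, adjusted p = 0.149 in limma), and it passed the filter through the LRP5-null libraries, where it was high.

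The members' differences were also set beside the base composition of their transcripts. Across genes, the deviation of a library from the mean of all 6 followed GC content among the 32 members, with a Spearman coefficient of −0.52 for WT replicate 1, −0.56 for WT replicate 2, 0.55 for WT replicate 3 and 0.11 to 0.46 for the LRP5-null replicates. The log2 fold changes of the 32 members had a Spearman correlation of 0.38 with GC content, and those of 8769 genes with a known transcript one of 0.49. These correlations are descriptions over genes that share the same 6 libraries. Acsl4 had the lowest GC content of the members tested, at 39.0%, and the most negative fold change. At the upper end, Acads (60.1%) had a log2 fold change of −0.03, Ppard and Acaa1a (59.5% each) 0.24 and 0.22, and Etfb and Pnpla2 (57.0% each) −0.01 and −0.0088. With the trends of each library with GC content and transcript length removed, a setting chosen after the data were seen, the log2 fold change of Acsl4 was −0.05 and that of Ppard 0.09. It was 0.19 for Acsl5, 0.22 for Eci2, −0.19 for Slc25a20 and −0.09 for Acadl. Other members moved away from 0, Mgll from −0.07 to −0.20 (adjusted p = 0.0610 in limma) and Cpt1a from −0.10 to −0.17 (adjusted p = 0.0995 in limma), both then without overlap, and Etfb from −0.01 to −0.16 and Acads from −0.03 to −0.15. In this setting 0 of 32 members were called by limma beside 4.4% of the genes then tested, with 7 at an unadjusted p under 0.05 beside 25.3%.

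**Figure D4:**
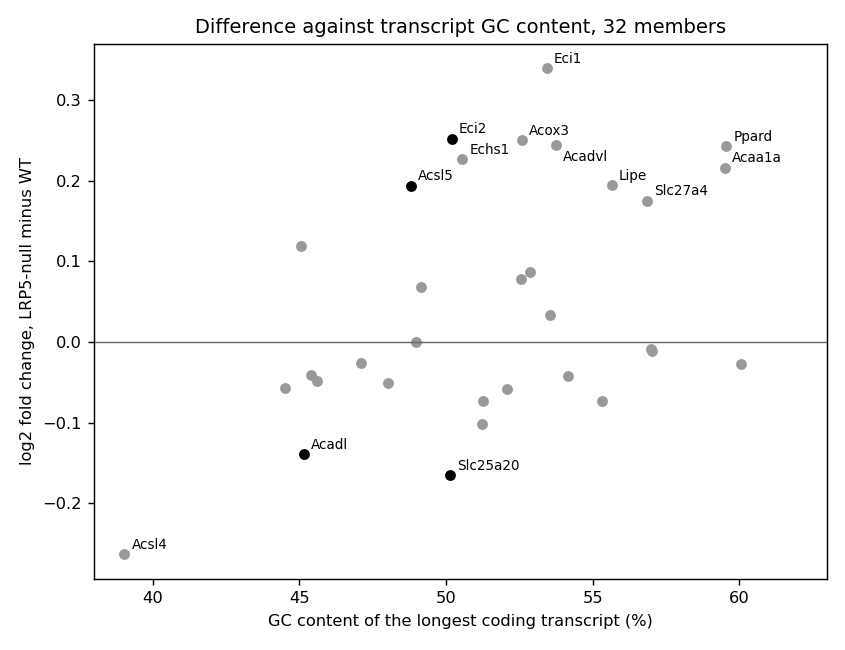
Log2 fold change between LRP5-null and WT libraries (y axis) against the GC content of the longest coding transcript in percent (x axis) for the 32 members tested, black where the libraries of the labels did not overlap. Acsl4 lies at the lower left and Ppard and Acaa1a at the upper right, Acads, of the highest GC content, lies near 0, and Slc25a20 and Eci2, of nearly the same GC content, lie on opposite sides of 0.

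**Figure D5:**
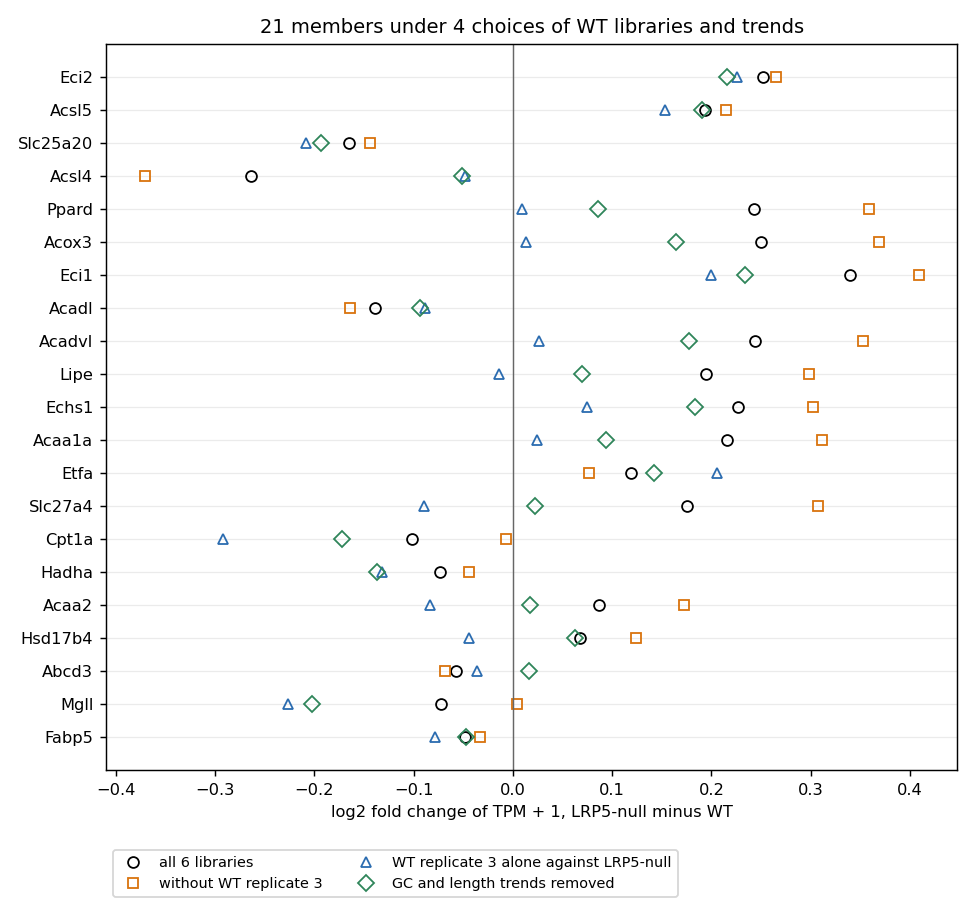
Log2 fold change (x axis) of 21 members (y axis, in order of p) with all 6 libraries, without WT replicate 3, against WT replicate 3 alone and with GC and length trends removed. The marks of Eci2, Acsl5 and Slc25a20 stay together on one side of 0, and those of Acsl4, Ppard, Acox3, Lipe and Slc27a4 spread from near 0 to about 0.30 or more in size.

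Without WT replicate 3, 6 of 32 members were called, 5 higher (Slc27a4, Eci2, Acox3, Ppard and Lipe) and 1 lower (Acsl4), beside 12.1% and 7.57% of all genes in those directions. Over both directions 19.6% of all genes were called there. With any other library left out limma called 0 members, beside 0.0205% to 0.184% of all genes. At an unadjusted p under 0.05 there were 1 to 4 of 32 members, beside 13.8% to 17.8% of all genes.

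The number of members whose groups did not overlap moved with the setting and with the share of all genes. It was 7 of 42 without a filter (19.6% of all genes), 9 of 32 with median-ratio scaling (32%), 7 with quantile normalization (30.2%), 7 after rescaling without mitochondrial and the most abundant genes (33.3%) and 10 with GC and length trends removed (33.6%). It was 8, 7 and 17 without WT replicates 1, 2 and 3 (37.4%, 35.5% and 56.1%), 6, 9 and 8 without LRP5-null replicates 1, 2 and 3 (38.1%, 35.6% and 38%), and 19 against WT replicate 3 alone (65.2%).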

How the data were processed

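RNA-seq of neutrophils gave 6 libraries, in groups of 3. The authors aligned reads to mm9 and name DESeq2 for quantification, and they deposited TPM, in which each library is scaled to 1 fixed total. The tool that made the TPM is not given in the sources used here. The deposited read summary holds counts of reads, shares in percent, a ratio for coverage bias, a score of coverage variation and lengths in bases. Its coverage values were not analysed.

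The 9775 genes that averaged 1 TPM or more were fitted with limma 3.58.1 in R 4.3.3 on the log2 of TPM + 1, using the mean-variance trend and no covariates and Benjamini-Hochberg adjustment over all genes tested. On simulated data for the same 9775 genes, the fit found 45.5%, 84.5% and 98% of genes given log2 changes of 0.5, 1 and 2. The simulated noise was drawn separately for each gene, without the trends that genes share in these libraries. No change between 0 and 0.5 was simulated, and those fitted to members reached at most 0.34 in size. Coordinates, GC content and transcript length came from GENCODE M1 (NCBIM37). The members and the gene lists were chosen with earlier results of these data known. Values by library are given for the 20 members of smallest p and the transporters and binding proteins tested, and for the genes called and the 5 of smallest p among the other pathway genes, with the rest by range. Outside that rule and after their values were seen, Pnpla2, Slc27a2, Acsl3 and Decr1 were given by library and other members by their means.

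The alternatives were a pseudocount of 0.1, other filters, other scalings, limma with robust shrinkage or no trend, leaving out each library, the replicate number as a block, the ribosomal share as a covariate, WT replicate 3 alone (chosen for its ribosomal share), and, added after seeing the data, removal of GC and length trends (loess span 0.3).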

Additional observations from a re-analysis of the deposited data

How the results depend on the processing

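Over 18 alternatives the median log2 fold change of the members stayed between −0.05 and 0.06, and 0 members were called except without WT replicate 3. The medians of single libraries within a label had an SD of 0.068, which is not the error of a difference between labels. With each library left out, the number of members called ranged from 0 to 6, and that of all genes called from 2 to 1920 against 52. Members without overlap ranged from 6 to 17 of 32 against 4, beside 35.5% to 56.1% of all genes against 29.7%. The upper ends were those without WT replicate 3. All genes called numbered 3 without a filter, 29 (10 higher) when the filter was raised to 5 TPM, 96 (69 higher) after rescaling without mitochondrial and the 20 most abundant genes, 6 (1 higher) with the ribosomal share, 6 (1 higher) against WT replicate 3 alone and 386 (141 higher) with GC and length trends removed. Members without overlap numbered 7 of 42 without a filter (19.6% of all genes), 9 of 32 with median-ratio scaling (32%) and 7 with quantile normalization (30.2%). They numbered 7 after rescaling (33.3%) and 10 with the trends removed (33.6%). Against WT replicate 3 alone they numbered 19 (65.2%), where 1 library stands for WT and is assumed to vary like the LRP5-null ones.

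Directions turned in some uncalled members. With the ribosomal share they were −0.010 for Slc27a4, −0.035 for Acaa2 and −0.013 for Hsd17b4, with −0.10 for Cpt2 (0.08 with all libraries) and 0.12 for Etfb (−0.01), and against WT replicate 3 alone −0.014 for Lipe, −0.090 for Slc27a4, −0.083 for Acaa2 and −0.045 for Hsd17b4, with −0.18 for Cpt2 and 0.17 for Etfb. Abcd3 was 0.016 with the trends removed, with each library left out Acaa2 ranged from −0.0018 (without WT replicate 1) to 0.17 and Mgll from −0.15 to 0.0039 (without WT replicate 3). Apart from the library left out by construction, the cause was not tested. The difference in ribosomal share, 0.933 percentage points (exact permutation test, two-sided, p = 0.4), ranged from 0.567 to 1.62 with a library left out, and that in intronic share, 2.47 points (exact p = 0.1, the smallest possible with 3 against 3), from 2.13 to 2.74.

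With the replicate number as a block, 4 genes were called in place of 52, and 0 members. The labels do not say that numbers pair libraries, and the deviations of same-numbered libraries correlated at 0.23, −0.0075 and 0.13. WT replicates 1 and 3 correlated best with the same number, WT replicate 2 did not.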
